A study of Mus musculus with 4 samples.

Results

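Lung natural killer (NK) cells were taken from the 2 lung single-cell libraries by their transcripts. A member was a cell barcode with at least 500 unique molecular identifiers (UMIs, each counting 1 captured transcript) and at most 20% mitochondrial UMIs that held at least 3 UMIs of Ncr1, Klrb1c and Klre1 together and no UMI of the T cell genes Cd3e, Cd3d or Cd3g, the B cell gene Cd79a, the macrophage gene Csf1r or the endothelial gene Cdh5. The rule found 256 of 19427 filtered lung barcodes, 158 of 8342 in the TNF- library and 98 of 11085 in the TNF+ library. The TNF+ library came from TNF-Tg mice, which carry a human TNF transgene and develop erosive arthritis and pulmonary vascular disease, and the TNF- library from littermates without it. All were 4-month-old female mice on the C57BL/6 background, and lungs of 3 to 5 mice per genotype were pooled, digested with collagenase A, elastase and dispase, freed of red blood cells and sorted for viability before 10x 3′ capture. The design therefore holds 1 library per genotype, so no difference between TNF- and TNF+ has a replicate check, and differences between mice, captures and genotypes cannot be told apart. All intervals below are exact or approximate 95% intervals for counting error only.

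Member depth was similar in the 2 libraries, with a median of 7913 UMIs per cell in TNF- (1666 to 33919) and 9038.5 in TNF+ (1142 to 37844). Levels are given in CPM, the UMIs of a gene summed over the members of a library and scaled to the total UMIs of the same cells, which was 1359872 in TNF- and 936723 in TNF+. Ratios are those of TNF+ over TNF- CPM on the log2 scale, and pairs of values are given in the order TNF- and TNF+. The 3 genes of the rule had a median of 23 UMIs per cell in each library, with 1 and 4 members at the threshold of 3 UMIs and 7 and 3 barcodes just below it, at 2. The label was checked on Gzma, Prf1 and Eomes, NK markers that the rule did not use. Gzma was found in 150 of 158 and 79 of 98 members, Prf1 in 148 and 79, and Eomes in 119 and 52. The cytotoxic markers were thus present in nearly all TNF- members and in fewer of the TNF+ members, of which a group low in Gzma is described separately below. The libraries shared 21 lung barcodes, none of them a member.

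NK cells are innate lymphocytes that kill infected or transformed cells by releasing perforin and granzymes and that secrete interferon gamma and chemokines. Their activity follows the balance of activating and inhibitory receptors, many of which read MHC class I, and in the mouse these include the Ly49 receptors (the Klra genes) and the NKG2 receptors (the Klrc genes). Mouse NK cells mature from CD27-positive cells to CD11b-positive cells, and the lung holds mainly mature, circulating ones. Type 1 innate lymphoid cells also carry NKp46 (Ncr1) and NK1.1 (Klrb1c), so the rule admits both kinds.

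The genes most particular to the members in both genotypes, beyond those of the rule, lay largely in the NK gene complex of chromosome 6. Genes were ranked by the smallest of 4 CPM ratios. These were over CD8 T cells (237 in TNF- and 181 in TNF+) and over B cells (1119 and 1037) of the same 2 libraries. The CD8 T and B cells were required to hold no UMI of Ncr1, Klrb1c or Klre1, which can raise the ratios of genes expressed with them. Since members and comparators were chosen by their transcripts, this ranking is a description only. Klra4 (Ly49D, an activating receptor; GRCm38 chromosome 6, 130043731 to 130067271) led with a ratio of at least 497 in each of the 4 comparisons. Klra8 (Ly49H, the activating receptor for a cytomegalovirus protein; 130115226 to 130129898) followed at 303 and Klra7 (Ly49G, inhibitory; 130218605 to 130233322) at 270.0. Cma1, a mast cell chymase gene on chromosome 14 (55941451 to 55944675), stood at 171, and Klri2, a lectin-like receptor gene (chromosome 6, 129729041 to 129740484), at 143. The other genes named by this ranking were Klrb1a, Klrb1b, Styk1, Adamts14, Clnk, Aoah, Klra9, Klra1, Cd244a and Klrb1f, with ratios from 140 down to 40.5. Of the 15 genes, 9 were Klr genes, and Klr genes near each other on chromosome 6 are similar in sequence, so reads may have been assigned to the wrong member of the family.

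NK cells made up a smaller share of the captured TNF+ lung cells. They were 1.89% of filtered barcodes in TNF- (1.61 to 2.21) and 0.884% in TNF+ (0.718 to 1.08), a difference of -1.01 percentage points (-1.36 to -0.678). Against lymphocytes alone, meaning barcodes with NK, Cd3 or B cell marker transcripts, members were 158 of 2507 (6.30%) in TNF- and 98 of 3085 (3.18%) in TNF+, a difference of -3.13 points (-4.29 to -2.01). The genes barred by the rule removed unequal numbers of cells. Of 294 and 263 barcodes with at least 3 UMIs of the NK genes, the absence of Csf1r removed 9 in TNF- and 54 in TNF+, 21 of the latter for a single Csf1r UMI, while the absence of Cd3 removed 96 and 126. When 1 UMI of the barred genes was allowed, the shares were 2.37% and 1.29% and the difference was -1.08 points. Digestion, the viability sort and the numbers of other cells captured also set such shares, and their part was not tested.

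Transcripts of B cells and macrophages were more abundant in the TNF+ members. Igkc, the immunoglobulin kappa constant gene, was at 0.627 UMIs per member in TNF- and 9.30 in TNF+, against 1286 per B cell in TNF+. The macrophage gene C1qb had 1 and 52 UMIs and Apoe 38 and 185 in all. Lyz2, an abundant macrophage gene, was at 905 and 780 CPM. Summed over the whole marker lists, B cell genes had medians of 1 and 12 UMIs per member and means of 4.61 and 13.3, and macrophage genes medians of 5 and 16 and means of 14.5 and 18.1. A single TNF- member held 1115 of the 2297 TNF- UMIs of the macrophage list, while no TNF+ member held more than 47. Lyz2 is on that list, and its level without that member was not computed. T cell genes had medians of 4 and 5 and means of 4.89 and 5.42, and neutrophil genes medians of 0 and 0 and means of 0.285 and 0.561. Epithelial genes ran the other way in the mean, 52.0 and 7.32 UMIs per member with medians of 6 and 7, because 1 TNF- member held 6119 of 6480 UMIs of Sftpc, the surfactant protein C gene. The defining basophil and mast cell genes Mcpt8, Ms4a2 and Fcer1a were at 0 in both libraries, as were Il23r, Il22, Il17a, Il5 and Il13 of type 2 and 3 innate lymphoid cells. The part of free RNA or doublets in the comparisons below was not tested except where values are given.

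**Figure D1:**
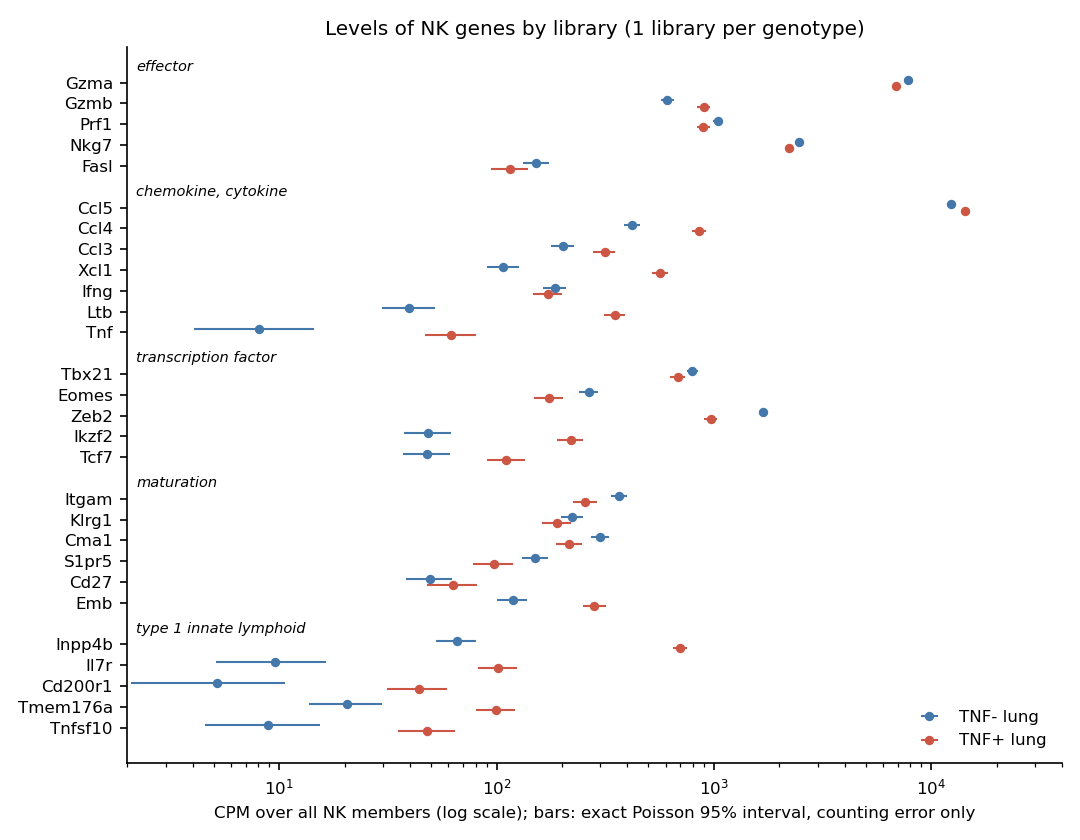
Level of NK genes in the TNF- and TNF+ lung members in CPM (log axis), 1 library per genotype, with bars for the exact 95% Poisson interval. Gzma and Prf1 lie close together in the 2 libraries, while Xcl1, Ltb and Inpp4b lie far apart.

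The cytotoxic machinery was at much the same summed level in both genotypes, while Gzma and Prf1 were detected in fewer of the TNF+ cells. Gzma, encoding granzyme A, was at 7799 CPM in TNF- and 6896 in TNF+ (log2 ratio -0.18, -0.22 to -0.13), yet its median was 63 UMIs per cell in TNF- and 47 in TNF+ with first quartiles of 40 and 2. Prf1, encoding the pore-forming protein perforin, was at 1049 and 895 CPM (log2 ratio -0.23), with medians of 8 and 5.5 UMIs per cell. Gzmb, encoding granzyme B, went the other way at 611 and 897 CPM (log2 ratio 0.55, 0.41 to 0.69), although 124 of 158 TNF- and 57 of 98 TNF+ members had a UMI of it. Its median was 3 and 1 UMIs per cell, while the third quartile was 6.75 and 10 and the highest cell held 48 and 95, so a minority of TNF+ cells held much of the granzyme B RNA.

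For each list of genes, the number past 2-fold in either direction was counted among genes with at least 50 UMIs over the 2 libraries. Over all 6308 such genes, 1.68% were at least 2-fold higher and 3.36% at least 2-fold lower in TNF+, and the median log2 ratio was -0.09. Of the 17 cytotoxic granule genes tested, 1 was past 2-fold (Tnfsf10, the death ligand TRAIL, higher at 8.82 and 48.0 CPM) and the list median was -0.07. Srgn, encoding the granule proteoglycan serglycin, was 1.73-fold higher (567 and 980 CPM). Serpinb9, which protects the cell from its own granzyme B, was at 393 and 284 CPM, and Fasl, the Fas ligand gene, at 152 and 115. Nkg7, a granule membrane protein gene, differed little at 2466 and 2219 CPM.

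Cells with a transcript of Klra4 or Klra8 were less frequent in TNF+. To compare shares of cells with a UMI at equal depth, 2000 UMIs were drawn at random from every cell that had them, which left 156 and 96 members. After thinning, Klra4 was found in 44.9% of TNF- and 22.9% of TNF+ members, a difference of -22.0 points (-32.6 to -9.91), and in 47.5% and 26.5% before thinning. Klra8 was in 48.7% and 30.2% (63.9% and 39.8% unthinned) and Klra9, encoding the inhibitory receptor Ly49I, in 50.6% and 35.4% (67.7% and 46.9%). In B cells, which lack these receptors, the thinned shares of Klra4, Klra8 and Klra9 were at most 0.0967%. Those B cells had median depths of 7403 and 8039 UMIs before thinning. They were chosen to hold no UMI of Ncr1, Klrb1c or Klre1, which also removes B cell barcodes with free NK RNA. The part of free RNA in the member shares was therefore not tested. Klra7 was in 49.4% and 41.7%, a difference of -7.69 points whose interval held 0 (-19.9 to 4.95), as did those of Klra1 and Klra3. Prf1 was in 78.8% of TNF- and 54.2% of TNF+ members after thinning and 93.7% and 80.6% before, against 0.718% and 0.387% of B cells, but after thinning to 1000 UMIs the difference was -8.51 points with an interval that held 0 (-20.7 to 4.03). For Klra9 the interval at 1000 UMIs also held 0 (-22.5 to 0.778). Without the Gzma-low, Ly49-negative cells defined below, the difference at 2000 UMIs was -14.6 points for Klra4 (-26.7 to -1.24), -8.94 for Klra8 (-21.8 to 4.63), -9.04 for Klra9 (-22.1 to 4.54) and -1.47 for Prf1 (-12.9 to 8.48).

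**Figure D2:**
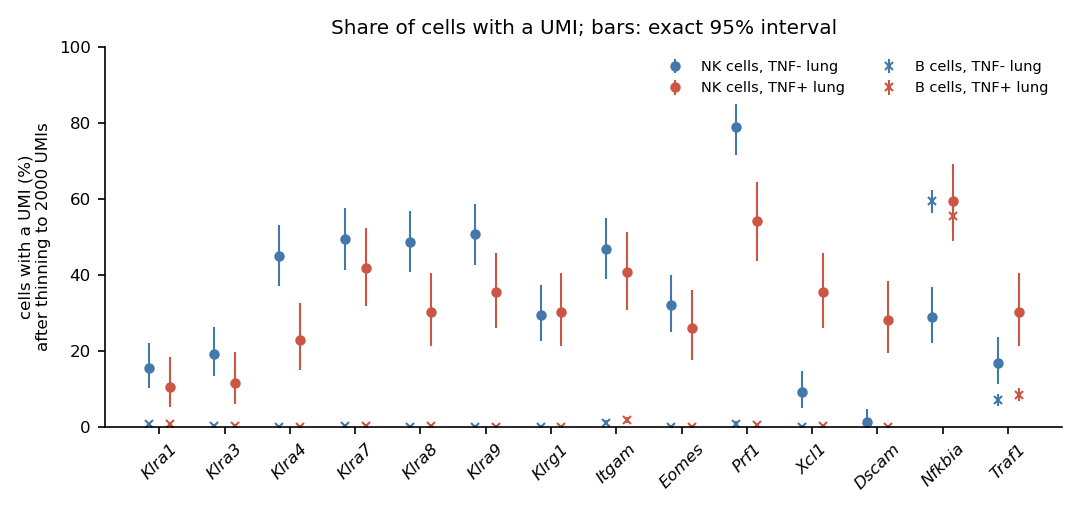
Share of cells with at least 1 UMI of each gene after thinning every cell to 2000 UMIs, for NK members (circles, 156 TNF- and 96 TNF+) and B cells (crosses), with exact 95% intervals. At this depth Klra4, Klra8, Klra9 and Prf1 were in fewer TNF+ members, Xcl1, Dscam, Nfkbia and Traf1 in more, and Klrg1 in 29.5% and 30.2%.

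Summed levels of the receptors differed less than the shares of cells. Klra4 was at 849 and 626 CPM, Klra8 at 556 and 381 and Klra9 at 623 and 384, whereas Klra7 was at 461 and 567. Of 13 genes tested on the inhibitory receptor list, 1 was past 2-fold higher (Klra5) and 2 were past 2-fold lower (Klra10 and Klri2), with a list median of -0.23. Klri2 was counted on this list although its product is known from an activating receptor. Klri2 was at 382 and 180 CPM, in 113 of 158 and 47 of 98 members. Klra5, at 14.7 and 41.6 CPM, rested on 8 and 10 cells, 1 of which held 17 of its UMIs. Klrg1, a receptor of mature NK cells, was at 222 and 189 CPM.

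Among 21 genes tested on the activating receptor and adaptor list, which did not hold Klri2, 2 were past 2-fold higher, none was past 2-fold lower, and the median was -0.11. The 2 were Cd160 (28.7 and 60.9 CPM) and Klrb1f (110 and 221 CPM), the latter a lectin-like receptor gene of the NK complex. Klrk1, encoding NKG2D, was at 1077 and 999 CPM and Klrd1, encoding the CD94 partner of the NKG2 receptors, had a log2 ratio of -0.06. Klrc2 and Klrc3, encoding NKG2C and NKG2E, were lower at 477 and 337 CPM and at 94.9 and 50.2 CPM. The signalling adaptor genes Tyrobp (DAP12) and Fcer1g had log2 ratios of -0.18 and -0.04, and Cd247, the zeta chain gene, was at 435 and 291 CPM.

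Chemokine and cytokine transcripts were among the largest differences between the genotypes. Of 9 secreted factor genes tested, 4 (Ltb, Tnf, Xcl1 and Ccl4) were past 2-fold higher in TNF+, none was past 2-fold lower, and 8 lay above 0, with a median of 0.64. The rise was not particular to NK members. In CD8 T cells 3 of 8 genes (Xcl1, Ccl4 and Tnf) were past 2-fold higher, with a list median of 0.68. In B cells 4 of 8 (Ccl9, Il10, Tnf and Lta) were, with a median of 0.90. The share of all genes past 2-fold was not counted in those cells. Xcl1, encoding lymphotactin, which attracts cross-presenting dendritic cells, was 5.26-fold higher at 107 and 565 CPM (log2 ratio 2.40, 2.13 to 2.67) and was found in 38 of 158 and 52 of 98 members. After thinning its share was 8.97% and 35.4% (24.1% and 53.1% unthinned), a difference of 26.4 points (16.0 to 37.0), with at most 0.0967% of B cells. Xcl1 RNA was therefore spread over many members rather than held by 1, the highest cells having 31 and 75 UMIs.

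Ccl4, encoding the macrophage and T cell attractant MIP-1 beta, was at 421 and 854 CPM (log2 ratio 1.02, 0.86 to 1.18), in 103 and 64 members. It was not past 2-fold with at least 5 NK gene UMIs required (0.99) or with 1 UMI of each barred gene group allowed (0.77). As with Gzmb, the upper part of the distribution moved, the third quartile going from 4 to 10.5 UMIs per cell. Ccl3, encoding MIP-1 alpha, was at 201 and 314 CPM, and Ccl5, encoding RANTES, at 12317 and 14268. Ifng, encoding interferon gamma, the hallmark NK cytokine, was at 185 and 172 CPM (log2 ratio -0.11).

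Ltb, encoding lymphotoxin beta, was at 39.7 and 349 CPM (log2 ratio 3.14, 2.72 to 3.58) and in 24 and 45 members. B cells express Ltb strongly and no cell type that lacks it was compared. In TNF+ it stood at 3.34 UMIs per NK member and 6.77 per B cell, and Igkc at 9.30 and 1286. The part of free RNA or doublets in the Ltb level was not tested. After thinning Ltb was in 6.41% and 36.5% of members (15.2% and 45.9% unthinned) and in 64.6% and 69.8% of B cells. Mouse Tnf itself was at 8.09 and 61.9 CPM, from 11 and 58 UMIs, in 7 and 26 members. Its thinned share was 0.641% and 7.29%, against 3.59% and 9.57% of B cells, and no cell type that lacks Tnf was compared. In TNF+, 39 of the 58 UMIs lay in 8 of the 18 Gzma-low, Ly49-negative cells described below, the highest with 11. The source of this level was not tested, and it is not read as NK expression. Reads were counted on a mouse reference without the human gene, and transgene reads that matched mouse Tnf cannot be told apart from mouse ones.

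Genes of the early, CD27-positive stage were higher in TNF+ and genes of the late stage mostly lower, but less so. Of 12 early genes, 8 (Il7r, Ltb, Xcl1, Ly6e, Emb, Tcf7, Kit and Cxcr3) were past 2-fold higher, none was past 2-fold lower, and the median was 1.20. Il7r, the interleukin 7 receptor gene, was at 9.56 and 101 CPM, in 7 and 23 cells. Emb, encoding the adhesion protein embigin, was at 118 and 282 CPM, Ly6e at 208 and 522, and Tcf7, encoding the transcription factor TCF-1, at 47.8 and 111. Cd27 itself was at 49.3 and 63.0 CPM.

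None of 12 late maturation genes was past 2-fold, and 10 lay below 0 with a median of -0.49. Itgam, encoding CD11b, was at 366 and 256 CPM, S1pr5, the receptor that lets NK cells leave tissue, at 151 and 97.1, and Cma1 at 299 and 216. Sorted by transcript, 41 TNF- and 15 TNF+ members held both Cd27 and Itgam, 94 and 47 held Itgam alone, 17 and 17 held neither, and 6 (3.80%) and 19 (19.4%) held Cd27 alone, a difference of 15.6 points for the last class (7.74 to 24.7). These classes follow 1 or a few UMIs per cell, were made without thinning and are not surface phenotypes. After thinning to 2000 UMIs, the difference in share was 2.88 points for Cd27 (-4.79 to 11.8) and -6.17 for Itgam (-18.3 to 6.43). Both intervals held 0. Of the 18 TNF+ Gzma-low, Ly49-negative cells described below, 10 had a UMI of Cd27 and 5 of Itgam, so the classes overlap with that subset.

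The NK lineage's transcription factors mostly differed by less than 2-fold. Of 17 tested, 11 lay below 0 and 6 above, while the median of all genes was also below 0, at -0.09. Ikzf2 (Helios, 48.5 and 219 CPM) and Tcf7 were past 2-fold higher, none was past 2-fold lower, and the list median was -0.25. Eomes, required for the NK lineage and low in type 1 innate lymphoid cells, was at 265 and 174 CPM. Tbx21, encoding T-bet, which both lineages need, was at 796 and 683, and Zeb2, which drives terminal maturation, at 1689 and 965. Tox was at 292 and 427 CPM, and Id2, the inhibitor needed by all innate lymphoid cells, had a log2 ratio of 0.14.

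The TNF+ members held a larger share of cells without the Gzma and Ly49 transcripts that define most NK cells. This subset, chosen after the values were seen, took members with fewer than 5 Gzma UMIs and no UMI of Klra3, Klra4, Klra7, Klra8 or Klra9. It held 5 of 158 TNF- members (3.16%, 1.04 to 7.23) and 18 of 98 TNF+ members (18.4%, 11.3 to 27.5), a difference of 15.2 points (7.62 to 24.2). With the Gzma limit at fewer than 1 UMI it held 4 and 15, and at fewer than 20 UMIs 6 and 20. The 18 TNF+ cells had a median of 9731 UMIs, above that of all TNF+ members, and the 5 TNF- cells a median of 5722.

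**Figure D3:**
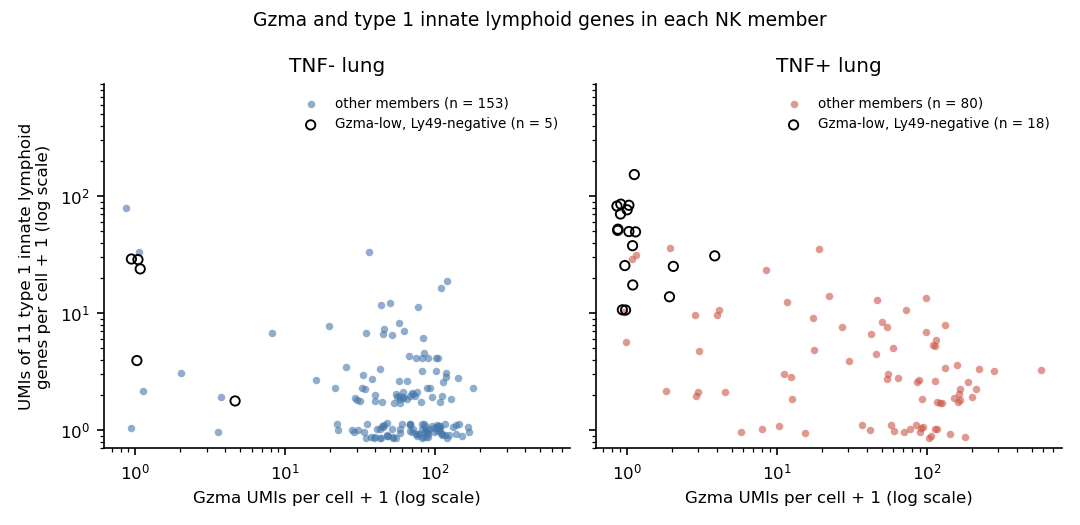
Each NK member by its Gzma UMIs plus 1 and its summed UMIs of 11 type 1 innate lymphoid genes plus 1 (log axes, points slightly jittered), TNF- on the left and TNF+ on the right, with open circles for the 5 and 18 Gzma-low, Ly49-negative cells. The 18 TNF+ cells sit at the upper left, low in Gzma and high in the listed genes (the 9 of the text with Ckb and Gpr183). Of the listed genes, Inpp4b gave the most UMIs in these 18 cells.

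In TNF+, these cells were high in genes of type 1 innate lymphoid cells. Of 9 such genes (Itga1, Cd200r1, Cxcr6, Il7r, Tmem176a, Tmem176b, Tnfsf10, Rora and Inpp4b), 9 were higher in the 18 cells than in the other 80 members, and their sum had a median of 44 UMIs per cell (5 to 165) against 2 (0 to 32). Inpp4b, a phosphoinositide phosphatase gene, was at 2910 CPM in the 18 cells, all of which had a UMI, and at 194 in the others. It weighed most in the sum, with 507 UMIs in the 18 cells, Rora following with 105. Before thinning, 80.3% of TNF+ B cells also had a UMI of Inpp4b, so it is not particular to innate lymphoid cells. Tmem176a was at 385 and 34.1 CPM, Il7r at 385 and 36.7, Rora, encoding a nuclear receptor of innate lymphoid cells, at 603 and 52.5, and Cxcr6, a tissue homing receptor, at 143 and 7.87. Itga1, encoding CD49a, differed least of those named, at 91.8 and 70.8 CPM. The 5 TNF- cells had a median of 3 UMIs (1 to 31) of the same genes against 0 (0 to 65), and 1 of them held 396 of 399 UMIs of Cd74 and all 111 of H2-Aa, genes of antigen-presenting cells.

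The 18 cells kept T-bet but had little of the NK programme. Tbx21 was at 740 CPM in them, in 18 of 18, and 670 in the others. Eomes was at 28.7 CPM in 4 of the 18 cells and at 207 in the others, Zeb2 at 121 and 1158, Prf1 at 51.6 and 1087, Nkg7 at 528 and 2606 and Ccl5 at 1819 and 17113. No UMI of Gzmb, Klrg1, Cma1 or S1pr5 was found, which allows up to 16.7% of such cells to have a UMI and sets no limit on cells that express the gene below detection. Against the floor of 3 UMIs over the 18 cells, Gzmb was at least 64.0-fold lower than in the other TNF+ members and Klrg1 at least 13.5-fold lower.

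The receptors of the rule were lower too, Ncr1 at 505 and 862 CPM, Klrb1c at 453 and 1171 and Klre1 at 172 and 872, while Klrk1 was similar at 947 and 1011. Other genes high in them were Ikzf2 (912 and 60.3 CPM), Rbpj, the Notch transcription factor gene (855 and 45.9), Ltb (844 and 236) and Kit (143 and 14.4). Of the type 2 innate lymphoid genes, Il1rl1 had no UMI in them and Gata3 was at 143 and 78.7 CPM. The T cell receptor constant genes were at like levels in the 18 cells and the others, Trac at 17.2 and 23.6 CPM, Trdc at 34.4 and 52.5 and Trbc1 at 304 and 285. Since the cells were selected on Gzma and Ly49 and the comparison lies within 1 library, these values describe the 18 cells and carry no test.

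**Figure D4:**
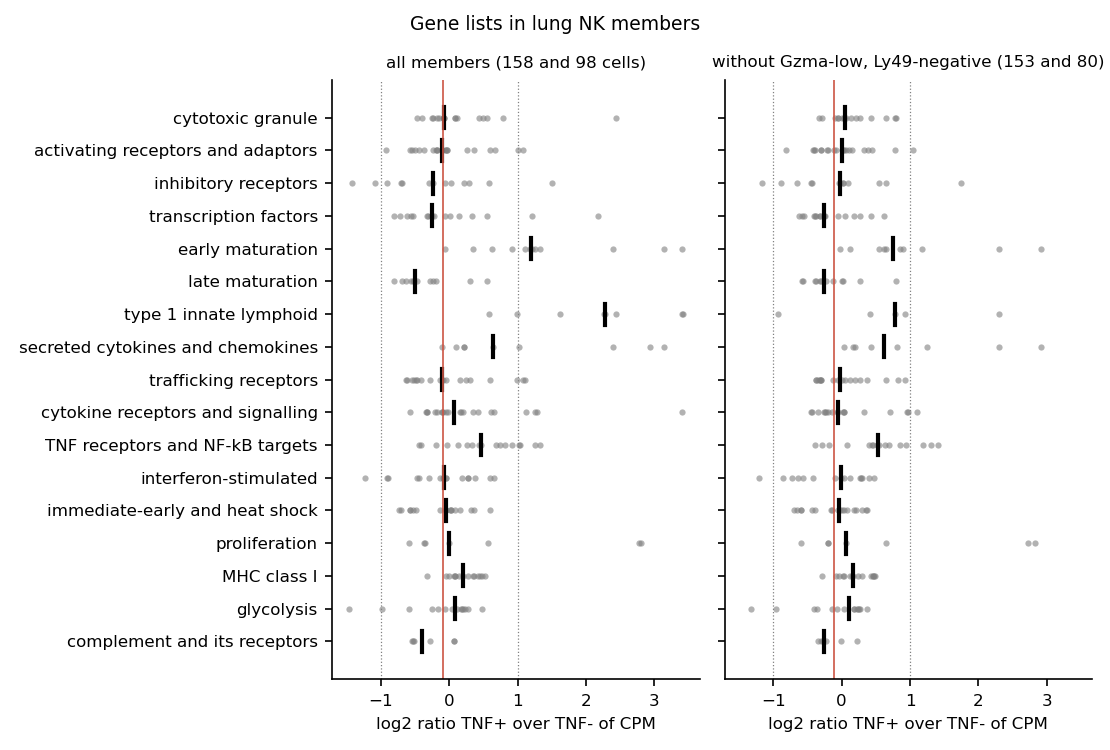
Log2 ratio of TNF+ over TNF- CPM for each tested gene of each list (points) with the list median (black bar) and the median of all genes (red line), for all members (158 and 98, left) and without the Gzma-low, Ly49-negative cells (153 and 80, right); dotted lines mark 2-fold. The type 1 innate lymphoid list has a median of 2.27 on the left and 0.79 on the right, and the secreted factor and NF-kB lists have 0.62 and 0.53 on the right.

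Without these 5 and 18 cells, Xcl1 and Ccl4 were still past 2-fold higher in TNF+. Cells with at least 5 UMIs of the 9 type 1 innate lymphoid genes remained, 17 of 153 in TNF- and 22 of 80 in TNF+. The values of Gzma and of the Ly49 genes in the other members are descriptions only, because the cells left out were chosen for having few or none of those transcripts and their removal mainly lowers the total UMIs. Among the other 153 and 80 members, 1.18% of 5948 genes were at least 2-fold higher and 4% at least 2-fold lower, with a median log2 ratio of -0.11. Gzma had a log2 ratio of 0.07, Prf1 of 0.00 and Gzmb of 0.80. Xcl1 was at 2.31, Ltb at 2.92, Ccl4 at 1.24 and Inpp4b at 2.30. Inpp4b is also a B cell transcript here, at 7.39 UMIs per B cell and 6.68 per NK member in TNF+. In the 144 and 56 members with at least 20 Gzma UMIs, a choice made after the data were seen, Xcl1 was at 1.51, Ltb at 2.01, Ccl4 at 1.46 and Gzmb at 1.11. The type 1 innate lymphoid list had a median of 2.27 over 8 tested genes in all members, 6 of them past 2-fold higher (Gpr183 among them, with 27 of its 40 TNF+ UMIs in 1 cell), and 0.79 over 5 tested genes in the others, 1 of them (Inpp4b) past 2-fold. In the same order, the early maturation list had medians of 1.20 and 0.75, with 8 of 12 and 3 of 10 genes (Ltb, Xcl1 and Ly6e) past 2-fold, and the late list of -0.49 and -0.26. In the others, Kit was at -0.08, Ikzf2 at 0.43 and Rora at -0.92. Of the Ly49 genes, Klra9 was at -0.45, Klra8 at -0.30 and Klra7 at 0.55, while Eomes was at -0.40 and Zeb2 at -0.58.

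NF-kB is the transcription factor family that TNF receptors activate, and many of its targets are its own inhibitors and subunits. Some of them were higher in the TNF+ members. Of 17 genes of TNF receptors and NF-kB targets, 4 (Nfkbia, Relb, Traf1 and Nfkbiz) were past 2-fold higher, none was past 2-fold lower, and 13 lay above 0 with a median of 0.46. Nfkbia, encoding the inhibitor I-kappa-B alpha, was at 217 and 547 CPM (log2 ratio 1.33, 1.12 to 1.54), with medians of 1 and 4 UMIs per cell. It was found in 109 of 158 and 93 of 98 members, and after thinning in 28.8% and 59.4%, against 59.3% and 55.5% of B cells, which express it themselves. Relb, an NF-kB subunit gene, was at 47.1 and 112 CPM, and Traf1, a TNF receptor adaptor gene, at 104 and 214. Without the cells of highest Scrublet doublet score, Traf1 was at a log2 ratio of 0.94 and not past 2-fold. Birc3, encoding the receptor-bound inhibitor of apoptosis cIAP2, was at 105 and 200 CPM (log2 ratio 0.92) and Tnfaip3, encoding the A20 inhibitor, at 185 and 297 (log2 ratio 0.69).

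The genes of the TNF receptors themselves were near level when summed. Tnfrsf1a was at 29.4 and 28.8 CPM and Tnfrsf1b at 76.5 and 83.3. After thinning Tnfrsf1b was in 9.62% and 20.8% of members, a difference of 11.2 points (2.29 to 21.1), and in 42.4% and 50% before, against 2.42% and 3.87% of B cells after thinning. The difference was 4.26 points (-2.75 to 12.6) after thinning to 1000 UMIs and 2.92 points (-5.59 to 13.2) without the Gzma-low, Ly49-negative cells, so it did not hold. Icam1 (log2 ratio -0.44), Cflar (-0.41) and Bcl2a1b (-0.19) lay below 0, the last with 48 of its 78 TNF- UMIs in 1 cell. Without the Gzma-low, Ly49-negative cells the list median was 0.53 and Nfkbia was at 1.31.

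**Figure D5:**
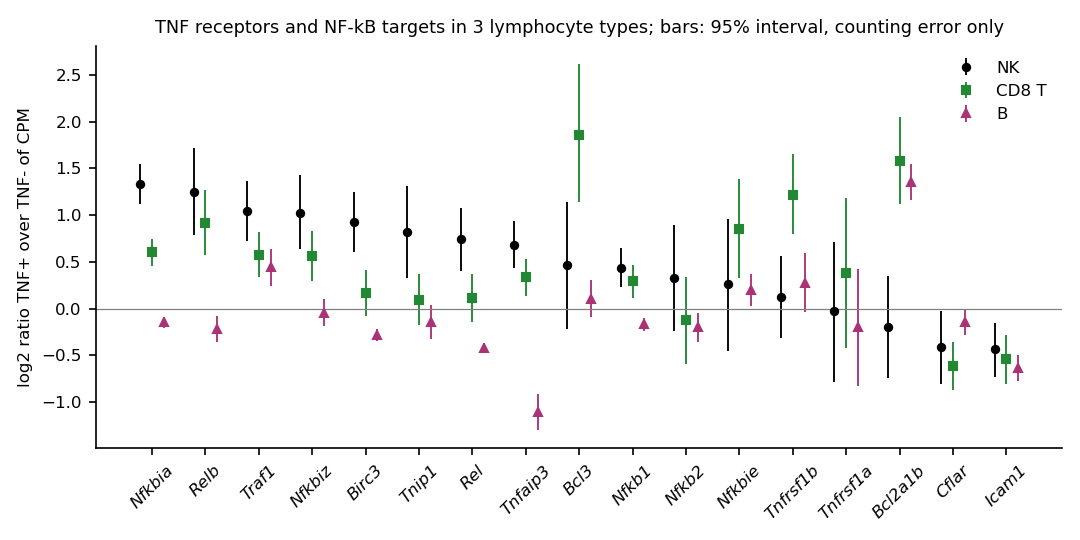
Log2 ratio of TNF+ over TNF- CPM for 17 genes of TNF receptors and NF-kB targets in NK members, CD8 T cells and B cells of the same 2 lung libraries, with 95% intervals for counting error only. Nfkbia, Birc3 and Tnfaip3 are highest in NK members. Bcl2a1b is higher in CD8 T and B cells but not in NK members, where a single cell held most of its TNF- UMIs.

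The same list was read in CD8 T cells and B cells of the same libraries, which share the captures but not the cells. In CD8 T cells 3 of 18 genes (Bcl3, Bcl2a1b and Tnfrsf1b) were past 2-fold higher with a list median of 0.36, beside -0.01 for all genes. In B cells 1 (Bcl2a1b) was past 2-fold higher and 1 (Tnfaip3) past 2-fold lower with a list median of -0.15, beside -0.27. The share of all genes past 2-fold was counted in NK members only, so the counts in CD8 T and B cells have no background beside them. Nfkbia had log2 ratios of 1.33 in NK members, 0.60 in CD8 T cells and -0.15 in B cells. Birc3 had 0.92, 0.17 and -0.29, and Tnfaip3 0.69, 0.34 and -1.11. The difference between cell types was not tested.

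Promoters of 3 of these genes are shown because their transcripts were higher together. Each is the 250 bases before the RefSeq start on GRCm38.p6, read 5′ to 3′ on the gene's own strand, with matches to the letters GGGNNNNNCC on either strand in capitals. Nfkbia lies at chr12:55492648-55492897 on the minus strand and has 2 matches, 212 and 29 bases before the start. Birc3 lies at chr9:7873171-7873420 on the minus strand and has 1, 57 bases before it. Traf1 lies at chr2:34961773-34962022 on the minus strand and has none in this window.
Nfkbia: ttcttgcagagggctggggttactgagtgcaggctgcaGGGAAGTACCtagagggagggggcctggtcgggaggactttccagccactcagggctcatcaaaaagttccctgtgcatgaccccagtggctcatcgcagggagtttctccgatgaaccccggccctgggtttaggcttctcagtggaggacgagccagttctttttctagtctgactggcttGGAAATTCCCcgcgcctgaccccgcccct
Birc3: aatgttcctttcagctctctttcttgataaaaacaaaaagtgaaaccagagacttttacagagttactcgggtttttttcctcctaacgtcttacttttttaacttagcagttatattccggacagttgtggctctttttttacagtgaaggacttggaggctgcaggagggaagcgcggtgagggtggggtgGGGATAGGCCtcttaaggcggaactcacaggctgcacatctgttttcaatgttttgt
Traf1: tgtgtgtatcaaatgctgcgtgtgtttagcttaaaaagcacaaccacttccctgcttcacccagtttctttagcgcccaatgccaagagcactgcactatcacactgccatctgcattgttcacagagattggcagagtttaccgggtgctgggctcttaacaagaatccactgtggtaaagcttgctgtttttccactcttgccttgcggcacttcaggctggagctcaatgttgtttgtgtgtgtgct
These letters are common: counted by gene, 13148 of 27025 genes with a RefSeq promoter of that length held them (48.7%). So did 12 of the 15 listed genes with such a promoter (80%). Some genes, Nfkb2 and Tnfaip3 among them, have more than 1 start, so these are not shares of promoters. A match is a description of the sequence.

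Cytokine receptors of the NK cell differed gene by gene. Of 22 tested, 4 (Il7r, Il27ra, Tnfrsf18 and Tnfrsf9) were past 2-fold higher, none was past 2-fold lower, and the median was 0.07. Tnfrsf9, encoding the costimulatory receptor 4-1BB, was at 104 and 227 CPM, and Tnfrsf18, encoding GITR, at 47.1 and 112. Il2rb, the interleukin 2 and 15 receptor beta chain gene, was at 822 and 652 CPM and Il2rg, the common gamma chain gene, at 202 and 320. The receptors for interleukins 18 and 12 were near level, with log2 ratios of -0.04 for Il18r1, -0.32 for Il18rap and -0.21 for Il12rb2.

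Trafficking and adhesion genes included 2 of 18 past 2-fold higher, Cxcr3 (25.7 and 55.5 CPM) and Cxcr4 (24.3 and 51.2 CPM), and a median of -0.11. No integrin gene was past 2-fold: Itga2 (CD49b, -0.61), Itgb2 (-0.54), Itga4 (-0.48) and Itgal (-0.46) lay below 0, and Itga1 (0.99) and Itgb1 (0.31) above it. Cd69, a gene of activated and tissue-resident lymphocytes, was at 55.1 and 83.3 CPM. Of 16 interferon-stimulated genes tested, none was past 2-fold higher, 1 (Isg15, 44.9 and 19.2 CPM) was past 2-fold lower, and the median was -0.07. MHC class I genes leaned upward without passing 2-fold, with 12 of 15 above 0 and a median of 0.21, and B2m was at 1495 and 2080 CPM.

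Of 14 glycolysis genes, 1 was past 2-fold lower, the glucose transporter gene Slc2a1 at 115 and 41.6 CPM (log2 ratio -1.46, -2.01 to -0.95), seen in 82 of 158 and 26 of 98 members. The list median was 0.08. None of the 18 immediate-early and stress genes, which respond to tissue digestion, was past 2-fold, and their median was -0.05. Proliferation genes turned on 1 cell. Mki67 and Top2a were 2 of 7 past 2-fold higher, and a single TNF+ member with 37844 UMIs held 31 of 53 UMIs of Mki67, 68 of 94 of Top2a, 66 of 72 of Hist1h1b and 56 of 59 of Hist1h2ae. Without that cell neither Mki67 nor Top2a reached 50 UMIs over both libraries, and the list median was -0.55 in place of 0.00.

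The genes with the highest ratios over the whole transcriptome included several of the Gzma-low, Ly49-negative cells. Dscam, a cell adhesion gene of the immunoglobulin family, was 30.1-fold higher at 20.6 and 619 CPM, in 8 of 158 and 38 of 98 members. After thinning it was in 1.28% and 28.1% of members and in no B cell. It was at 1917 CPM in the 18 cells and 323 in the other 80, so both held it. Rbpj (27.2 and 196 CPM, 25 and 42 cells), Ahr, the aryl hydrocarbon receptor gene (8.09 and 53.4, 9 and 22 cells), and Ramp1, a neuropeptide receptor subunit gene (11.8 and 61.9, 12 and 23 cells), were each spread over more than 20 TNF+ cells. Ctla4 (2.94 and 54.4 CPM) came from 3 and 11 cells. With the rule's threshold at 2 UMIs of the NK genes, which added 7 and 3 barcodes, Dscam was at a log2 ratio of 4.91 as before, but Rbpj was at 1.33 instead of 2.85, Ahr at 0.73 instead of 2.72, Ramp1 at 1.55 instead of 2.40, Top2a at 1.33 instead of 2.77 and Mki67 at 0.44 instead of 2.81.

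Among the genes with the lowest ratios, 4 were carried by many TNF- members. As3mt, encoding an arsenic methyltransferase, was at 186 and 54.4 CPM and in 92 of 158 and 29 of 98 members. Angpt1, encoding the vessel-stabilising ligand angiopoietin 1, was 3.58-fold lower at 138 and 38.4 CPM, in 55 and 13 members. At far lower levels, Angpt1 was also lower in TNF+ in CD8 T cells (10.0 and 0.42 CPM) and B cells (8.15 and 1.64 CPM). Cdh22, a cadherin gene, was in 42 and 7 members and Rasl12 in 39 and 8. The other 8 were S100g, Il33, Slc34a2, Sftpb, Sftpc, Rnase4, Chil1 and Elovl1, for each of which 1 cell held most of the TNF- UMIs. The cell rich in Sftpc held 488 of 514 UMIs of Sftpb and all 60 of Il33.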

How the data were processed

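The authors deposited filtered UMI count matrices per library, raw whole-number counts made per the labels with Cell Ranger 7.0.1 against mm10, a version that also counts intronic reads. Each held 32285 genes. The members and gene lists were chosen with earlier results of these data known. Counts were summed over members and divided by their total. Log2 ratios carry conditional binomial intervals, shares Clopper-Pearson intervals and differences of shares Newcombe intervals. With 1 library per genotype no test across samples was possible, and no p-value is given. CD8 T cells were barcodes with at least 3 Cd3 and 2 Cd8 UMIs and no Cd4, and B cells held at least 5 UMIs of Cd79a, Cd79b and Ms4a1. Both held no UMI of Ncr1, Klrb1c, Klre1, Csf1r or Cdh5, and Cd79a was also barred in CD8 T cells and Cd3 in B cells. Named genes were the members of the lists, the 12 highest and 12 lowest ratios among genes with at least 50 UMIs and at least 2 times the B cell UMIs per cell in the higher library, and the 15 shared genes; some of these genes are not reported here. Doublets were not removed in the values reported, and Scrublet (scanpy 1.11.5) was run as an alternative. Gene positions came from GENCODE vM21 for 32158 genes. Python 3.11.15, numpy 2.4.6, scipy 1.17.1 and pandas 2.3.3 were used, and the calculations were tested on simulated data. Alternatives changed the gate, filters, UMI minimum, thinning depth and doublet handling and left out single cells or subsets; some were added after the data were seen.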

Additional observations from a re-analysis of the deposited data

How the results depend on the processing

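Of 65 list medians and named genes, 50 kept their sign under each alternative that gave them a value and 15 did not; stricter minimums and smaller sets of cells left some without one. The difference in NK share lay between -1.23 and -1.03 points over 7 alternatives, and the NF-kB median between 0.40 and 0.74. Allowing 1 UMI of each barred gene gave shares of 2.37% and 1.29%, 340 genes at least 2-fold lower, a type 1 innate lymphoid median of 1.58 and a proliferation median of 0.55. The study's limits of 200 to 5000 genes per cell gave a TNF- share of 2.23% and a proliferation median of -0.58, and reversed Sftpb (0.54) and Sftpc (0.67). Applying the rule after thinning to 2000 UMIs gave shares of 2.31% and 1.08%. A minimum of 20 UMIs gave 293 genes higher and 540 lower with a proliferation median of 0.96, and a minimum of 200 UMIs gave 30 and 35. Without the Gzma-low, Ly49-negative cells 70 genes were higher and the type 1 median was 0.79. Among members with at least 20 Gzma UMIs 60 genes were higher, and the early, late and type 1 medians were 0.30, 0.0064 and 1.08. Leaving out the TNF- member rich in Sftpc reversed Sftpb (0.50), Sftpc (0.66) and Elovl1 (0.0095), and leaving out the TNF+ member rich in Top2a gave a proliferation median of -0.55. Thinning to 1000 UMIs gave differences in share of -8.51 points for Prf1 (with an interval that held 0), 9.86 for Ltb and -4.60 for Ifng. Where cells or genes were not left out, the cause was not tested. No paired analysis was possible because each genotype has 1 library. With 98 TNF+ members, genes under 50 UMIs were left out of the counts.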

Other observations

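Several genes of the lists had fewer than 50 UMIs over both libraries and were not counted above. Cd200r1, encoding an inhibitory receptor of type 1 innate lymphoid cells, had 7 UMIs in 4 TNF- members and 41 in 14 TNF+ members (log2 ratio 3.09, 1.92 to 4.49). Cxcr6 had 13 and 31 UMIs in 6 and 13 members (1.79, 0.82 to 2.85). Cish, encoding the cytokine-induced inhibitor CIS, had 11 and 29 UMIs in 10 and 12 members (1.94, 0.89 to 3.09), and Lilrb4a, an inhibitory receptor gene, had 7 and 25 in 7 and 15 (2.37, 1.12 to 3.83). Interferon-stimulated Usp18 ran the other way, with 24 and 5 UMIs in 13 and 4 members (-1.73, -3.47 to -0.31). The inhibitory receptor gene Klri1 did so too, with 30 and 8 UMIs in 22 and 7 members (-1.37, -2.71 to -0.21).

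Of the complement genes, on which the study centred, 6 of 15 had enough UMIs to be counted in the members. None was past 2-fold and their median log2 ratio was -0.40. C3, encoding the central complement component, had 6 UMIs in 5 TNF- members and 26 in 23 TNF+ members, and C1qa had 1 and 30, in 1 and 29 members (log2 ratio 5.44, 2.86 to 10.8). No TNF+ member held more than 3 UMIs of C3 or 2 of C1qa, and C1qa was at 40.0 CPM in TNF+ B cells and 32.0 in TNF+ NK members, a level shared by both cell types. The same rule applied to the synovial libraries found 28 TNF- and 13 TNF+ cells, too few to be described here.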
